A study of Homo sapiens with 9 samples.

Results

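BE-43547A1, a cyclic lipodepsipeptide made by bacteria, was given to PANC-1 cells at 41 nM, and its effect on RNA levels after 12 h of hypoxia was read against cells that received the solvent DMSO at 0.04% for the same 12 h of hypoxia. PANC-1 is an established line from a human pancreatic ductal carcinoma, and the results describe this single line. Each group held 3 libraries of total RNA, so 6 of the 9 libraries of the series enter the comparison, and the other 3 come from cells given rakicidin A, a related compound, at 42 nM. No library came from cells kept at normal oxygen, so every group carried the hypoxic state. The comparison covered 57820 GENCODE entries of a count table of 112171 features, and 18122 of these entries passed the filter on low counts. Whether the replicates of a group were grown as separate cultures is not stated by the labels, so p-values reflect the variation among these libraries alone, and that variation may be technical.

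BE-43547A1 and rakicidin A share an amidopentadienoate group on a lipid-bearing peptide ring, and compounds of this family are known for killing cancer cells in low oxygen more than in normal oxygen. Cells under stress answer through a few well-described routes. Misfolded protein in the endoplasmic reticulum (ER) sets off the unfolded protein response, in which the sensors ATF6, IRE1 (gene ERN1) and PERK (gene EIF2AK3) raise chaperones and slow translation. PERK and related kinases feed the integrated stress response, in which ATF4 and CHOP raise amino acid supply and, later, death genes. Stress kinases and calcium raise immediate early transcription factors within minutes to hours, and NF-kB raises cytokines and its own inhibitors. 

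Levels are given as CPM, the count of a gene scaled by the library's total count on features and by TMM factors, which match the bulk of genes across libraries, so they compare one gene across libraries and not different genes. Counts on features came to 27696394 to 30596594 in the DMSO libraries and 39807220 to 45048999 after BE-43547A1, which makes the treated side the more deeply sequenced one. DMSO replicate 3 stood apart from its group, with a chi-square per gene of 17.1 to 18.9 against the other two where they differed from each other by 7.05, and with 0.520% of its counts on mitochondrially encoded genes against 0.287 and 0.334%. BE-43547A1 libraries held 0.254 to 0.319%. All 6 duct epithelium markers were tested and their summed level was 2923 to 3100 CPM in DMSO and 3463 to 3728 CPM after BE-43547A1. KRT19, a duct keratin, was at 1349, 1222 and 1084 CPM in DMSO and 1297, 1201 and 1193 CPM after BE-43547A1, and did not pass. The 7 acinar markers summed to 0 to 0.126 CPM in DMSO and 0.183 to 0.202 CPM after BE-43547A1, with PRSS1 and CPA1 at 0 in all 6 libraries and CTRC the highest. The 6 islet markers summed to 0 to 0.0568 and 0.0675 to 0.124 CPM, with INS and PPY at 0. Summed over 7 leukocyte markers the level was 1.74 to 2.24 CPM in DMSO and 3.71 to 4.57 CPM after BE-43547A1, with CD3E at 0. The 7 stroma markers summed to 9.79 to 13.8 and 7.29 to 9.33 CPM, and the 4 endothelial markers found to 0.153 to 0.284 and 0.296 to 0.540 CPM. The part of these low signals in the results below was not tested.

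BE-43547A1 changed most of the tested transcriptome. By edgeR's quasi-likelihood test at a Benjamini-Hochberg adjusted p below 0.05, 6011 genes rose (33.2% of those tested) and 6740 fell (37.2%). A change of at least 2-fold was called for 2389 genes that rose (13.2%) and 2325 that fell (12.8%). Large rises outnumbered large falls, with 341 rises and 85 falls of at least 8-fold, and 71 rises and 5 falls of at least 32-fold. Genes called at least 2-fold higher took 6.10 to 6.22% of the counts in DMSO libraries and 17.0 to 17.2% after BE-43547A1. Of the called genes, 5714 that rose and 6483 that fell had no overlap between the 3 libraries of each group. A low adjusted p favours such separation, and its share among all tested genes was not counted, so these numbers add no support to the calls. Scaling by total counts alone gave 4295 rises and 9128 falls, that is 32% of calls upward in place of 47.1%, and moved the median log2 fold change of all genes from -0.04 to -0.28. List counts below are to be read beside the 33.2% higher and 37.2% lower of all tested genes. Many are given with the total-count result, while most single genes are given under the main scaling only. Total counts alone lowered single genes too, CCND2 from 0.46 to 0.22 and FJX1 from -0.23 to -0.47 on the log2 scale. Small changes, and genes that did not pass, therefore hold for the main scaling only. For each gene given below library by library that passed, the DMSO and BE-43547A1 libraries did not overlap, and ± gives the SE of a log2 fold change or difference. In whole-culture RNA, a change in the make-up of the cell population and a change per cell cannot be told apart.

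**Figure D1:**
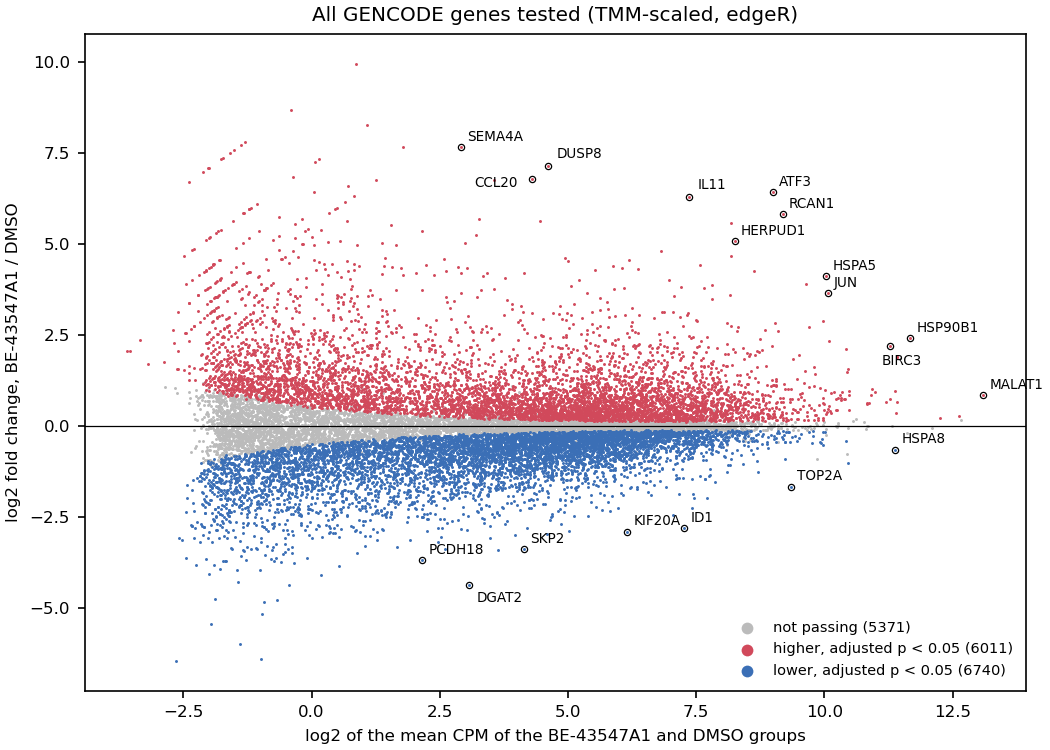
Log2 fold change of BE-43547A1 over DMSO (vertical axis) against the log2 of the mean CPM of the 2 groups (horizontal axis) for the 18122 GENCODE genes tested, coloured by call at an adjusted p below 0.05, with some named genes circled. Rises reach further from 0 than falls: 71 genes rose and 5 fell by at least 32-fold. With total counts alone the cloud sits lower by the shift of the median from -0.04 to -0.28.

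The 15 largest rises among named genes with a mean of at least 2 CPM included secreted signals, stress factors and brakes on signalling. SEMA4A, a membrane semaphorin, stood at 0.0917, 0.0316 and 0.0852 CPM in DMSO and 16.2, 17.1 and 11.7 CPM after BE-43547A1. DUSP8, a phosphatase of the stress kinases JNK and p38, went from 0.214, 0.253 and 0.540 CPM to 53.7, 48.8 and 44.1 CPM, a log2 fold change of 7.15 ± 0.19 (n = 3 per group, edgeR adjusted p = 2.7e-14). ATF3, a factor that dimerises with JUN, went from 11.4, 11.1 and 12.6 CPM to 1043, 1051 and 932 CPM. In all 3 genes every treated library lay far above every DMSO library, and the rule for naming them required no overlap.

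IL11, a cytokine of the IL-6 family, was read at 3.94, 3.70 and 4.75 CPM and 336, 345 and 289 CPM (log2 fold change 6.29 ± 0.13, adjusted p = 2.8e-13). RCAN1, an inhibitor of calcineurin, stood at 20.6, 20.9 and 19.1 CPM in DMSO and 1149.9, 1155 and 1133 CPM after BE-43547A1 (log2 fold change 5.83 ± 0.06, adjusted p = 9.2e-28). Libraries within each group differed little for RCAN1, and the SE of its fold change was the smallest of these 15 genes. The other members of this set were KRTAP2-3, CCL20, RRAD, IL8, SELPLG, OVGP1, FGF18, HERPUD1, KIAA1683 and CNTD2, with log2 fold changes down to 5.02. RRAD encodes a small GTPase that restrains calcium channels, SELPLG the selectin ligand PSGL-1 and FGF18 a growth factor.

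Some genes were close to silent in DMSO. At 3 counts or fewer over the 3 DMSO libraries and at least 0.5 CPM on average after BE-43547A1 stood 49 entries, 30 of them with a gene symbol. MMP10, the matrix protease stromelysin 2, had 3 counts in DMSO and 401 after BE-43547A1, a ratio of 108.0 after scaling (95% counting interval 36.7 to 526). TNFSF14, the cytokine LIGHT, had 1 count against 258 (ratio 208.5, interval 37.1 to 8268), and KRTAP2-3, a hair keratin-associated gene with close paralogues, had 1 against 522 (ratio 421.9, interval 75.4 to 16695). LTA, lymphotoxin alpha, had no DMSO count and 86 counts after BE-43547A1, which is at least 23.2-fold higher against a floor of 3 counts over the group. XIRP1, an actin-binding gene of muscle, had no DMSO count and 101 after treatment, at least 27.2-fold higher. These genes reached only 0.5 to 6.87 CPM after treatment. The ratios and intervals come from the same counts by which the genes were picked, so they describe these genes and do not test the rise. In the opposite direction 5 entries went from at least 0.5 CPM to 3 counts or fewer, 2 of them with symbols: HOXA6 (99 counts in DMSO, 1 after BE-43547A1) and CCDC180 (53 and 2). The BE-43547A1 libraries were deeper, so 3 counts stand for a lower level there, and the 49 and 5 entries are not directly comparable.

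**Figure D2:**
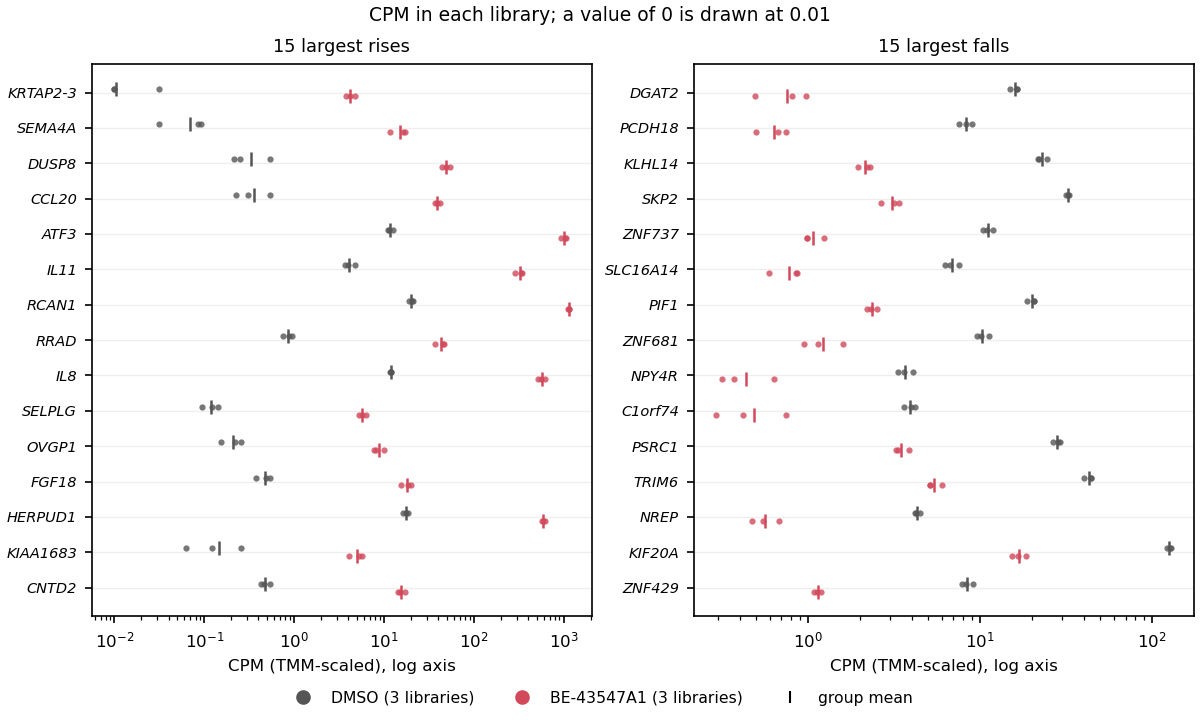
CPM in each library (log axis) for the 15 largest rises and the 15 largest falls by log2 fold change among named genes that passed and had a mean of at least 2 CPM, with the group mean as a bar; a value of 0 is drawn at 0.01. DMSO and BE-43547A1 libraries do not overlap for any of the 30 genes, which the rule for naming them required.

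ER chaperone and unfolded protein response genes rose almost without exception. Of 32 list members, 31 rose and 1 fell, with a median log2 fold change of 1.77 where the median over all tested genes was -0.04 and 33.2% of genes rose. The binding protein of the ER lumen, HSPA5 (BiP), is the chaperone that holds the sensors inactive, and XBP1 is the factor that IRE1 activates. Promoters of both hold the ER stress element, the letters CCAAT, any 9 bases and CCACG, shown here because this element was found in few promoters and most of the genes that have it rose. The lines give RefSeq promoter sequence (GRCh38.p14) in the direction of the gene, with the element in capitals, from chr9:125241366-125241434 on the minus strand for HSPA5 and chr22:28800578-28800646 on the minus strand for XBP1.
HSPA5: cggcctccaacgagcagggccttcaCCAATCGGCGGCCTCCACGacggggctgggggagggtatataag
XBP1: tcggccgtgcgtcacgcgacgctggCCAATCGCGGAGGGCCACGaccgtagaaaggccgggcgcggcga

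Searching both strands of the 250 bases before the start, 14 of 11221 promoters (0.125%) held this element, out of 18067 tested symbols of which 11221 had a RefSeq promoter. Among the 14 genes 13 rose and 1, ZNF17, fell, and 11 rose at least 2-fold. The ER list supplied 7 of them (HSPA5, XBP1, HSP90B1, CRELD2, CALR, ERO1LB and CANX), which is 7 of its 28 members with a promoter. The other 6 that rose were FICD, an ER enzyme that modifies BiP, SERP1, TRIM5, EIF2A, ALG12 and TMEM120A. A match of letters describes the promoter and is not a measurement of binding.

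HERPUD1, a membrane protein of ER-associated degradation, had the largest rise of the list, from 17.8, 16.1 and 18.7 CPM to 614, 569 and 594 CPM (log2 fold change 5.08 ± 0.07, adjusted p = 4.0e-26). HSPA5 stood at 96.7, 92.5 and 152 CPM in DMSO and 1779, 2148 and 2008 CPM after BE-43547A1 (log2 fold change 4.12 ± 0.23, adjusted p = 3.7e-06). DMSO replicate 3 was the high control for HSPA5, and the lowest treated library was still far above it. DNAJB9, a co-chaperone of BiP, went from 29.3, 25.3 and 26.1 CPM to 348, 356 and 416 CPM. MANF, a secreted ER protein, went from 36.9, 39.4 and 33.9 CPM to 391, 409 and 427 CPM.

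The branches of the response all held members that rose. The PERK gene EIF2AK3 rose by 3.04 ± 0.07 on the log2 scale, the IRE1 gene ERN1 by 2.68 ± 0.07, XBP1 by 2.91 ± 0.06 and ATF6 by 0.97 ± 0.06. HSP90B1 (GRP94), the ER member of the HSP90 family, was the second largest rise in CPM of all named genes, from 973, 1063 and 1074 CPM to 5055, 5582 and 5861 CPM. Gains and losses in CPM rank genes by the change in their share of the counts, which also depends on transcript length, and not by molecules. Degradation genes (SYVN1, SEL1L, EDEM1 and DERL3), folding enzymes (PDIA4, PDIA3, P4HB and PDIA6) and the lectin chaperones CALR and CANX were also higher. DERL1, a channel component of ER-associated degradation, had the smallest rise of the list at 0.30 ± 0.05. The single fall was WFS1, an ER membrane protein linked to calcium, from 50.6, 50.7 and 52.3 CPM to 31.8, 28.8 and 30.0 CPM (log2 fold change -0.76 ± 0.06, adjusted p = 1.2e-10).

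Genes of the integrated stress response rose in 24 of 29 tested cases, with 3 falls and a median of 1.24. With total counts alone the split was 21 and 5. ATF4 and its partners bind the C/EBP-ATF element, TGATGNAA, which 1.41% of all promoters and 3 of 25 in this list held (ASNS, ATF3 and CHAC1). The stretch for ATF3 is from chr1:212565191-212565248 on the plus strand. The one for CHAC1 is from chr15:40953237-40953294, also on the plus strand, where the match is to the reverse complement. Both are printed because these genes were among the strongly raised members, with the match in capitals.
ATF3: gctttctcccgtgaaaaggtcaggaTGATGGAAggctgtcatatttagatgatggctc
CHAC1: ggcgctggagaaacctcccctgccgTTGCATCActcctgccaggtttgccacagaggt

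ATF4 itself, the factor whose translation the pathway favours, went from 163, 167 and 165 CPM to 633, 637 and 653 CPM (log2 fold change 1.96 ± 0.05). DDIT3, which encodes the death-linked factor CHOP, went from 15.8, 18.5 and 16.7 CPM to 388, 355 and 347 CPM (log2 fold change 4.42 ± 0.07, adjusted p = 8.0e-25). SESN2, an inhibitor of mTORC1, went from 19.9, 19.1 and 19.9 CPM to 275, 270.4 and 280.0 CPM. PPP1R15A (GADD34), which directs dephosphorylation of eIF2 alpha, stood at 40.4, 46.3 and 42.6 CPM in DMSO and 494, 560.5 and 521 CPM after BE-43547A1, so all 4 genes had separate groups. CHAC1, which degrades glutathione, rose by 2.94 ± 0.09 and TRIB3, a pseudokinase that restrains AKT and ATF4, by 2.69 ± 0.08. Serine synthesis genes were split: PHGDH rose by 0.32 ± 0.08 and PSAT1 by 0.38 ± 0.10, while PSPH fell by 0.54 on the log2 scale (SE 0.06, adjusted p = 2.8e-08). ATF5 and VLDLR, the other members against the majority, had log2 fold changes of -0.42 ± 0.09 and -1.05 ± 0.12.

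Amino acid supply genes followed the same direction. All 11 transporters tested rose, with a median log2 fold change of 0.62, and 8 of the 11 were still called with total counts alone. SLC38A2, a sodium-coupled neutral amino acid transporter, went from 548, 508 and 481 CPM to 2165, 2110.0 and 2411 CPM. SLC7A11, the cystine importer, went from 59.7, 54.2 and 52.4 CPM to 203, 187 and 229 CPM, and its partner chain SLC3A2 from 146, 152 and 135 CPM to 355, 357 and 342 CPM. Cytosolic aminoacyl-tRNA synthetases, which charge tRNAs, were split: 13 of 20 rose and 4 fell, with a median of 0.30, and total counts alone gave 10 and 7. GARS rose most at 1.52 ± 0.06, followed by AARS, CARS and YARS at 1.49, 1.41 and 1.40. Those that fell were FARSB, RARS, DARS and QARS, FARSB most at -0.35 ± 0.05. RARS passed although its groups overlapped by CPM.

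All 29 immediate early transcription factors tested rose, in the main fit and in each of the 18 alternative settings, with a median log2 fold change of 2.13. These genes need no new protein synthesis for induction and many are known to carry elements for SRF or CREB. The serum response element was held by 0.980% of all promoters and by 2 of the 22 in this list (EGR1 and SRF). The cAMP response element TGACGTCA was held by 2.88% of all promoters and by 2 of the 22 (MAFF and JUND). A stretch of each kind is shown with every match in capitals, from chr5:138465349-138465408 for EGR1 and chr22:38201915-38201972 for MAFF, both on the plus strand.
EGR1: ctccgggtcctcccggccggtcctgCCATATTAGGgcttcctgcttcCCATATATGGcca
MAFF: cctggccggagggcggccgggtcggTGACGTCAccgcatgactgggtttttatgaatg

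JUN, the core of the AP-1 factor, had one of the 8 largest gains in CPM among named genes, from 152, 162 and 160.5 CPM to 2074, 2143 and 1745 CPM (log2 fold change 3.65 ± 0.08, adjusted p = 1.5e-20). FOSB, a partner of JUN, went from 5.96, 5.50 and 7.39 CPM to 126, 156 and 99.8 CPM, with its treated libraries spread more widely than those of JUN. MAFF, a small MAF factor, went from 7.58, 7.55 and 8.18 CPM to 215, 223 and 217 CPM. EGR1, a zinc finger factor of the growth response, was at 16.9, 16.8 and 33.2 CPM in DMSO and 123, 145 and 100.5 CPM after BE-43547A1 (log2 fold change 2.46 ± 0.31, adjusted p = 4.0e-04). DMSO replicate 3 was the highest control for EGR1, as it was for KLF6, ZFP36, IER2 and FOSL1, and it lay below all 3 treated libraries in each of them. CSRNP1, an AXUD1 family factor, rose by 4.56 ± 0.08, the nuclear receptor NR4A1 by 4.20 ± 0.15 and the growth factor response gene EGR4 by 5.64 ± 0.35, from 0.0611, 0.0948 and 0.0284 CPM to 3.51, 3.36 and 2.67 CPM. KLF10 had the smallest rise of the list at 0.74 ± 0.06.

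The AP-1 element TGANTCA was present in 7.24% of the promoters of genes at least 2-fold higher, against 3.91% of all promoters and 4.06% for genes at least 2-fold lower. These shares are a description, and no factor binding was measured.

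MAP kinase phosphatases and ERK feedback genes rose in 16 of 19 tested cases and fell in 2, with a median of 1.30. Among all 18 genes named DUSP that were tested, 9 rose and 7 fell. DUSP5, a nuclear ERK phosphatase, went from 28.2, 27.1 and 29.5 CPM to 429, 391 and 433 CPM (log2 fold change 3.89 ± 0.06). DUSP1, which acts on p38, JNK and ERK, went from 89.4, 87.5 and 89.0 CPM to 524, 526 and 578 CPM, and DUSP16, a JNK phosphatase, from 8.16, 8.59 and 10.3 CPM to 81.2, 78.2 and 78.6 CPM. ERRFI1, an inhibitor of the EGF receptor, had one of the 8 largest gains in CPM, from 1161, 1112 and 1174 CPM to 4295, 4214 and 4395 CPM. TM4SF1, a membrane protein outside this list, had a gain of similar kind, from 1166, 1229.7 and 1104 CPM to 4295, 4403 and 4221 CPM. The ERK feedback genes DUSP6 and ETV5 rose by only 0.55 ± 0.07 and 0.54 ± 0.06, ETV4 had a log2 fold change of -0.07 ± 0.11 (adjusted p = 0.57), and the members that fell were DUSP2 at -1.04 ± 0.16 and SPRED1 at -0.42 ± 0.06.

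**Figure D3:**
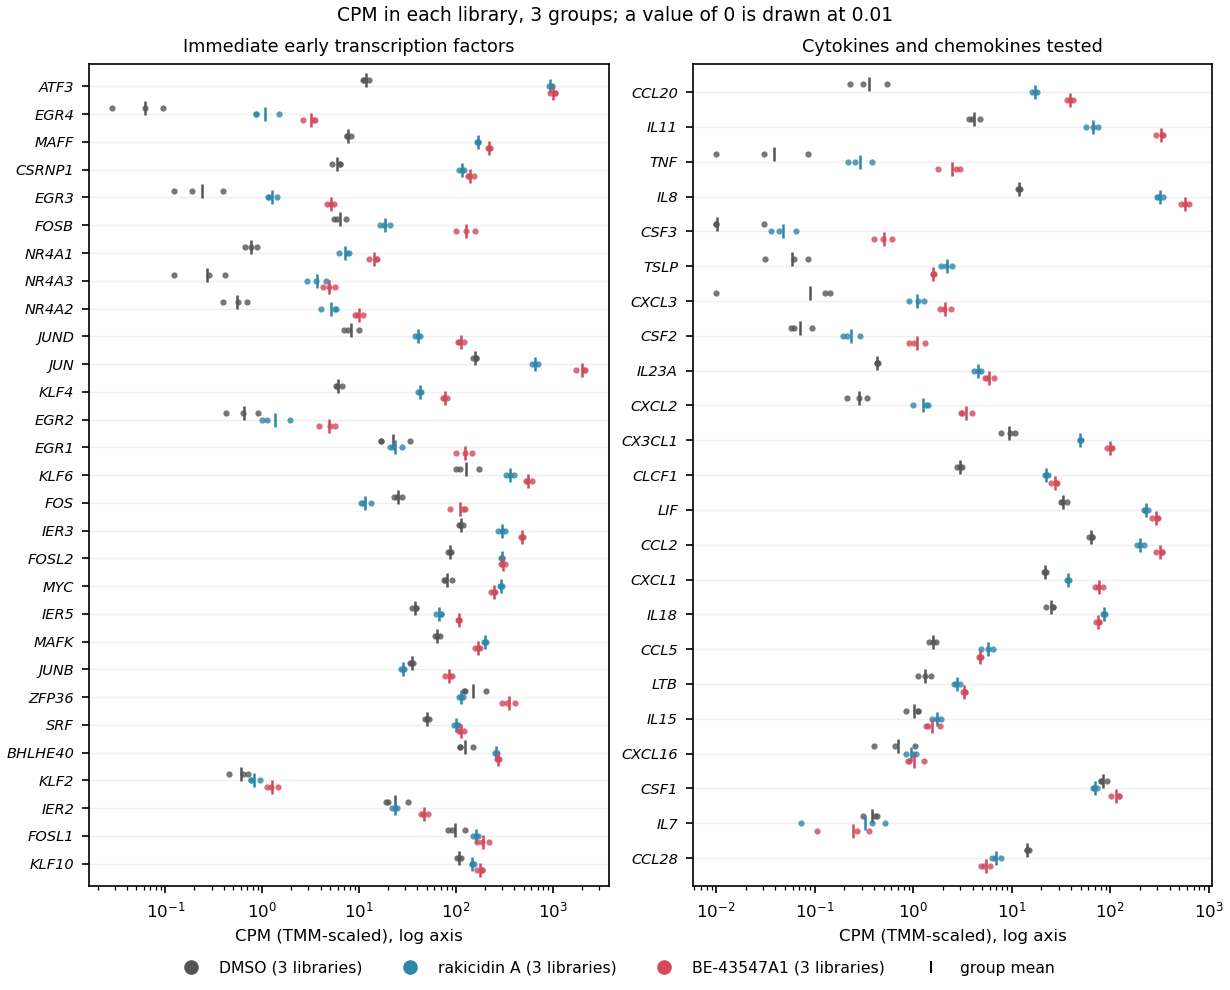
CPM in each library (log axis) of the 29 immediate early transcription factors and of the 23 cytokines and chemokines tested, in DMSO, rakicidin A and BE-43547A1, with the group mean as a bar and 0 drawn at 0.01. All 29 immediate early genes lie higher after BE-43547A1 than in DMSO, and FOS, JUNB and ZFP36 are the members whose rakicidin A libraries all lie below their DMSO libraries.

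NF-kB genes rose as a block. Of 24 subunits, inhibitors and feedback genes tested, 22 rose and 1 fell, with a median of 1.84. The kB site was held by 11.9% of all promoters, by 7 of 22 in this list and by 6 of 12 in the cytokine list. TNFAIP3 and CCL20 are shown because they had the largest rise among members with the site in their lists. The stretches are chr6:137867167-137867226 and chr2:227813738-227813797, both on the plus strand, and the capitals mark matches to the reverse complement.
TNFAIP3: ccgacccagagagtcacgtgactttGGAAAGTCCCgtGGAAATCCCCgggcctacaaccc
CCL20: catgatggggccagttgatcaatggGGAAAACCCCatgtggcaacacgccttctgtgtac

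TNFAIP3 (A20), an enzyme that ends NF-kB signalling, went from 7.58, 7.26 and 8.75 CPM to 161, 172 and 138 CPM (log2 fold change 4.32 ± 0.11, adjusted p = 2.6e-15). NFKBIA, the inhibitor I-kappa-B alpha, went from 67.0, 73.4 and 68.2 CPM to 294, 307 and 246 CPM. BIRC3 (cIAP2), an inhibitor of apoptosis and of non-canonical NF-kB, went from 905, 951 and 815 CPM to 3978, 4086 and 4092 CPM, the third largest gain in CPM among named genes. SOD2, the mitochondrial superoxide dismutase and a known NF-kB target, rose by 2.88 ± 0.05. TRAF1, a signalling adaptor, and NFKBIB, the inhibitor I-kappa-B beta, rose by 3.18 ± 0.07 and 2.74 ± 0.06. All 5 subunit genes rose: RELB by 2.63 ± 0.06, NFKB2 by 2.46 ± 0.07, REL by 2.19 ± 0.07, NFKB1 by 1.62 ± 0.05 and RELA by 1.23 ± 0.08. IKBKE, a kinase related to TBK1, was the member that fell (-0.94 ± 0.14), and BCL3 did not pass (0.27 ± 0.19, adjusted p = 0.2).

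Cytokine and chemokine genes had the largest median of all the lists, 3.20, with 20 of 23 tested members higher and 1 lower out of 34 entries. The remaining 11 entries did not pass the filter on low counts, and a gene silent in DMSO passes it only through its treated level. CCL20, the ligand of CCR6, went from 0.306, 0.537 and 0.227 CPM to 42.3, 38.6 and 36.7 CPM (log2 fold change 6.79 ± 0.15, adjusted p = 2.6e-22). IL8, the neutrophil chemokine CXCL8, went from 11.6, 11.9 and 12.0 CPM to 626, 567 and 520.3 CPM (log2 fold change 5.59 ± 0.08). CCL2, a monocyte chemokine, went from 60.9, 65.2 and 64.7 CPM to 338, 333 and 292 CPM, and LIF, a cytokine of the IL-6 family, from 32.6, 31.6 and 36.3 CPM to 297, 302 and 268 CPM. TNF was low throughout, at 0.0306, 0 and 0.0852 CPM and 2.97, 2.72 and 1.80 CPM, though its groups did not overlap. CCL28, a mucosal chemokine, fell from 14.9, 14.2 and 14.2 CPM to 4.93, 5.26 and 6.07 CPM. The summed leukocyte markers moved in the same direction as these genes. CD14 went from 0.122, 0.0948 and 0.142 CPM to 0.585, 0.667 and 0.444 CPM. ITGAM went from 1.41, 1.55 and 1.68 CPM to 2.86, 2.22 and 2.30 CPM. CD68 went from 0.153, 0.316 and 0.284 CPM to 0.967, 1.26 and 0.837 CPM. CD3E stayed at 0 and PTPRC, the pan-leukocyte marker, reached at most 0.0741 CPM. What these low signals mean for the cytokine genes was not tested.

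Growth factor genes were mixed. Among 8 EGF family and receptor genes tested, 4 rose and 3 fell. HBEGF, the heparin-binding EGF, went from 8.31, 10.0 and 9.26 CPM to 124, 134 and 125 CPM (log2 fold change 3.79 ± 0.07), and EREG and NRG1 rose by 2.16 ± 0.08 and 1.78 ± 0.06, while TGFA, ERBB2 and NRG2 had log2 fold changes of -0.53, -0.57 and -0.59 and passed. In the TGF-beta, BMP and activin list 12 of 23 rose and 9 fell, the falls near the 37.2% of all tested genes, and total counts alone gave 10 and 10. INHBA, the activin A chain, went from 2.69, 1.90 and 2.44 CPM to 25.3, 25.6 and 26.3 CPM, and FST, its secreted antagonist, rose by 3.23 ± 0.22, as did INHBE, another inhibin chain, by 2.68 ± 0.53. ID1, an inhibitor of differentiation and a BMP target, went the other way, from 312, 273 and 225 CPM to 43.3, 34.8 and 36.6 CPM (log2 fold change -2.82 ± 0.13, adjusted p = 4.1e-08). The other ID genes and the BMP-induced inhibitor SMAD6 also fell: ID4 at -2.13 ± 0.36, ID2 at -0.95 ± 0.08, ID3 at -0.52 ± 0.10 and SMAD6 at -1.63 ± 0.08.

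Calcium and calcineurin genes showed a strong rise in a few members and no common direction. Of 24, 11 rose and 6 fell, beside 33.2 and 37.2% of all tested genes. The median was 0.17, and total counts alone reversed the split to 8 and 11. RCAN1, given above, led the list. NFATC2, a transcription factor that calcineurin activates, went from 7.86, 7.11 and 8.64 CPM to 90.9, 97.0 and 83.9 CPM and NFATC1 from 9.08, 10.4 and 12.1 CPM to 41.4, 39.1 and 38.8 CPM. ITPR1, the type 1 IP3 receptor of the ER, fell from 211, 200.3 and 214 CPM to 78.9, 76.4 and 78.0 CPM. STIM2, a sensor of ER calcium, also fell (-0.93 ± 0.07), whereas its relative STIM1 had a log2 fold change of -0.05 ± 0.06 (adjusted p = 0.4).

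Matrix protease and plasminogen genes rose in 12 of 22 cases and fell in 4 (in 2 without BE-43547A1 replicate 2). MMP1, an interstitial collagenase, went from 3.18, 3.03 and 2.30 CPM to 17.3, 14.8 and 18.5 CPM, and PLAU (urokinase) from 154, 159.9 and 148 CPM to 630.1, 617 and 506 CPM. ADAMTS15, a proteoglycan-cleaving enzyme, fell from 34.7, 29.3 and 32.4 CPM to 5.11, 4.60 and 4.10 CPM (log2 fold change -2.80 ± 0.10). YAP and TEAD targets rose in 14 of 20 cases and fell in 3, with a median of 0.48 (11 and 5 with total counts alone). ANKRD1 went from 5.01, 5.97 and 5.0 CPM to 102, 111 and 122 CPM, and the matrix proteins CYR61 and CTGF rose by 2.04 ± 0.07 and 1.95 ± 0.06. LATS2, a kinase that restrains YAP, and F3, tissue factor, rose by 2.37 ± 0.07 and 2.14 ± 0.07, and AJUBA, FJX1 and ARHGEF17 fell by no more than 0.53, the value of ARHGEF17 (the call of FJX1 was lost without DMSO replicate 1, without DMSO replicate 2 and without BE-43547A1 replicate 3). Wnt targets and feedback genes fell in 10 of 16 cases and rose in 5 (11 and 2 with total counts alone). FRAT1, a GSK3-binding protein, fell by 2.10 on the log2 scale, WNT5A, a ligand, had a log2 fold change of -1.25 ± 0.31, and DKK1 and NOTUM, secreted Wnt antagonists, rose by 1.14 ± 0.06 and 1.02 ± 0.10.

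Hypoxia-inducible genes did not move together. HIF factors drive these genes in low oxygen, and since every library came from hypoxic cells the comparison asks only whether BE-43547A1 altered their level there. Of 32 HIF targets, 11 rose and 14 fell, near the 33.2 and 37.2% of all tested genes. The median was -0.01, close to that of all genes and of changing sign between settings, and total counts alone gave 10 and 19. PPFIA4 fell from 31.1, 27.9 and 32.4 CPM to 9.22, 9.54 and 9.57 CPM and HILPDA, a lipid droplet protein, from 65.6, 58.4 and 57.5 CPM to 24.1, 20.1 and 22.9 CPM. CA9, the carbonic anhydrase often used as a hypoxia marker, was low in both groups, at 0.367, 0.379 and 0.682 CPM in DMSO and 0.112, 0.124 and 0.157 CPM after BE-43547A1, and fell (-1.86 ± 0.52, adjusted p = 0.0029). STC1, a secreted glycoprotein, rose by 1.46 ± 0.12, and VEGFA and SLC2A1 by 0.74 ± 0.06 and 0.92 ± 0.06. ANGPTL4, PDK1 and EGLN1 did not pass, with log2 fold changes of 0.01 ± 0.06, 0.05 ± 0.06 and -0.09 ± 0.06. The letters ACGTG, the core of the HIF element, were in 14 of 26 promoters of this list and in 23.2% of all promoters.

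Glycolysis genes were split near the shares of all genes, 9 of 26 higher and 8 lower with a median of 0.04, while total counts alone gave 6 higher and 15 lower with a median of -0.20. HK2, the hexokinase that sits on mitochondria, went from 54.3, 53.9 and 67.4 CPM to 221, 228 and 240.0 CPM (log2 fold change 1.97 ± 0.07). PFKFB3, which makes the activator of phosphofructokinase, went from 61.4, 58.3 and 71.2 CPM to 224, 234 and 219 CPM. ALDOC and PDK3 fell, with log2 fold changes of -1.47 ± 0.10 and -1.21 ± 0.14. PGK1, one of the 8 largest losses in CPM, went from 1293, 1192 and 1074 CPM to 822, 777 and 865 CPM. LDHA and TPI1 had log2 fold changes of 0.13 ± 0.07 and -0.06 ± 0.06 and did not pass.

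Respiratory chain genes of the nucleus changed little. Of 54 subunit genes, 8 rose and 20 fell, the falls close to the 37.2% of all genes, none by 2-fold or more, with a median of -0.08, and 26 did not pass. Total counts alone called 39 of them lower and 2 higher. NDUFV2, a complex I subunit, had the largest fall at -0.83 ± 0.15, and the complex III protein UQCRFS1 went from 97.6, 95.9 and 79.3 CPM to 55.9, 52.1 and 57.7 CPM. CYCS, cytochrome c, rose by 0.50 ± 0.07. Among the 13 proteins encoded by mitochondrial DNA 1 passed and fell, MT-ND3, from 98.0, 105 and 209 CPM to 48.6, 69.2 and 53.1 CPM, and its call was lost without BE-43547A1 replicate 1 or 3. The number of mitochondrially encoded genes called lower ranged from 0 to 4 when single libraries were left out, and was 5 with total counts alone. DMSO replicate 3 had the high share of these transcripts given above. Without it the log2 fold change of MT-ND3 was -0.85 (edgeR adjusted p = 0.015) in place of -1.27, and the call stayed. The part of that share in these values was not tested otherwise.

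The list of mitochondrial import, chaperone and protease genes held 11 rises and 10 falls in 29 members (6 and 16 with total counts alone), close to the shares of all tested genes (33.2 and 37.2%). TIMM17A, a subunit of the inner membrane translocase, went from 107, 102 and 88.1 CPM to 267, 251 and 270.4 CPM, and TIMM44, which recruits the import motor, from 46.9, 47.5 and 48.0 CPM to 116, 120.0 and 127 CPM. HSPA9 and LONP1, the matrix HSP70 and a matrix protease, rose by 0.76 ± 0.05 and 0.77 ± 0.05. OMA1, a stress-activated inner membrane protease, and TIMM8A, an intermembrane space chaperone, fell by 0.91 and 1.09. In the dynamics, mitophagy and biogenesis list 7 of 25 rose and 12 fell (4 and 16 with total counts alone), beside the same shares of all tested genes. TFB1M, a methyltransferase of mitochondrial ribosomal RNA, went from 36.9, 35.2 and 31.7 CPM to 12.1, 11.9 and 12.7 CPM, MIEF2, a fission adaptor, from 5.17, 4.90 and 3.81 CPM to 1.21, 1.01 and 1.05 CPM and PPARGC1B, a coactivator of mitochondrial genes, from 10.1, 11.8 and 13.2 CPM to 4.18, 4.0 and 3.56 CPM. OPTN, a mitophagy receptor, had the largest rise there at 0.81 ± 0.06.

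Genes of mitosis fell nearly as a whole. Of 35 kinetochore, spindle and mitosis genes 34 fell and 1 rose, with a median of -1.18, where 37.2% of all tested genes fell. The letters TTTGAA, the cell cycle homology region through which the DREAM complex and its relatives act on mitotic genes, were in 14 of 28 promoters of the list and in 8.48% of all promoters. Those of ASPM (chr1:197146752-197146807, minus strand, match to the reverse complement) and BUB1B (chr15:40161021-40161068, plus strand) are printed with these letters in capitals, as the members with a match that fell most.
ASPM: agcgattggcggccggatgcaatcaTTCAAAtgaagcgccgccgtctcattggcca
BUB1B: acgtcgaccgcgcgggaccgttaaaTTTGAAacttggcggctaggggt

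KIF20A, a kinesin of cytokinesis, fell most, from 127, 129 and 122 CPM to 16.6, 18.4 and 15.3 CPM (log2 fold change -2.90 ± 0.08, adjusted p = 9.4e-21). NDC80, the kinetochore protein that grips microtubules, went from 109.7, 108 and 95.4 CPM to 21.0, 22.8 and 22.3 CPM. ASPM, a spindle pole protein, went from 282, 295 and 265 CPM to 67.4, 73.2 and 74.3 CPM, and BUB1B, a spindle checkpoint protein, from 147, 165 and 155 CPM to 40.4, 42.5 and 42.6 CPM. TOP2A, topoisomerase II alpha, was among the 8 largest losses in CPM, from 983, 1013 and 961 CPM to 306, 332 and 291 CPM. Cyclins and their kinase fell together: CCNA2 by 1.89 on the log2 scale, CCNB1 by 1.27 and CDK1 by 1.42. The member that rose was UBE2C, the ubiquitin-conjugating enzyme of the anaphase-promoting complex, from 82.5, 82.7 and 82.3 CPM to 108, 106 and 108 CPM.

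Replication genes followed with smaller changes, 28 of 34 lower and 2 higher with a median of -0.50 (30 and 1 with total counts alone). SKP2, which targets the inhibitor p27 for degradation, was the fourth largest fall among named genes with a mean of at least 2 CPM, from 32.7, 32.3 and 31.6 CPM to 3.15, 3.38 and 2.67 CPM (log2 fold change -3.39 ± 0.09, adjusted p = 4.1e-20). E2F2, an activating E2F, fell by 1.71 and its relative E2F1 had a log2 fold change of 0.02 ± 0.07 (adjusted p = 0.8). GINS1 and MCM10, which help to build the replicative helicase, went from 81.5, 82.9 and 77.4 CPM to 26.0, 26.3 and 24.9 CPM and from 53.2, 53.5 and 51.7 CPM to 20.3, 21.1 and 18.1 CPM. CCND1, cyclin D1, fell by 0.67. CDC6, which loads the helicase at origins, went against the list, from 94.1, 103 and 96.7 CPM to 168, 181 and 199 CPM, and CCND2 rose by 0.46 ± 0.13, a call that was lost with total counts alone.

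**Figure D4:**
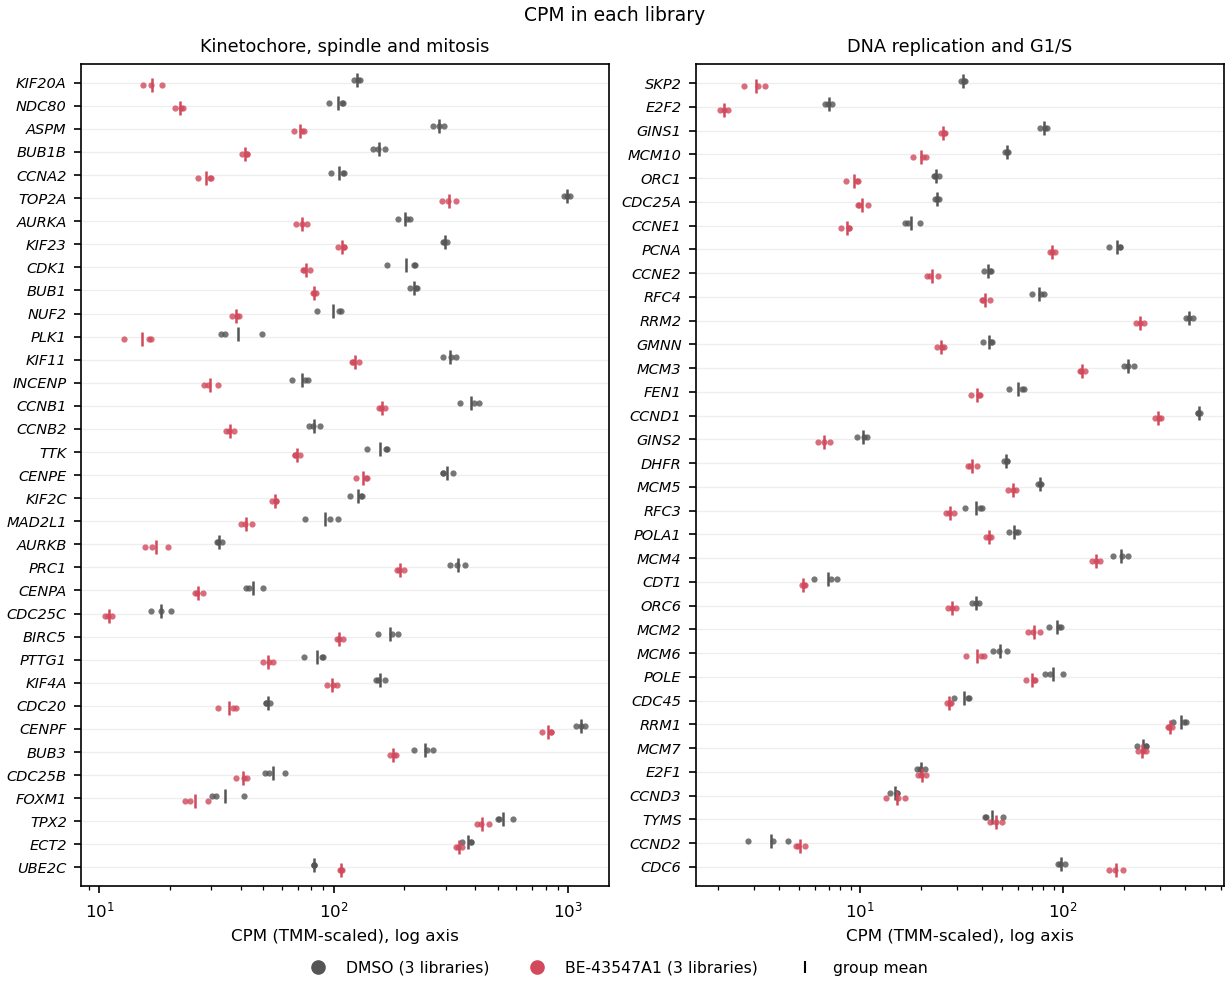
CPM in each library (log axis) of 35 mitosis genes and 34 replication and G1/S genes in DMSO and after BE-43547A1, with the group mean as a bar, ordered by log2 fold change. In mitosis 34 members fell and UBE2C rose; in replication 28 fell, and CDC6 and CCND2 rose.

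Growth arrest genes mostly rose. In the list of growth arrest and damage response genes, drawn up as p53 targets and growth arrest genes, 19 of 28 rose and 5 fell. The falls were 3 without DMSO replicate 1 or without BE-43547A1 replicate 2. The median was 1.03, and total counts alone gave 18 and 8. Several of these genes are also known targets of ATF4 or other stress factors, and the part of p53 or of those factors was not tested. GADD45A, a stress sensor that binds CDK1 and PCNA, went from 37.0, 41.6 and 39.8 CPM to 727, 774 and 758 CPM (log2 fold change 4.25 ± 0.06, adjusted p = 2.0e-25). BTG2, an antiproliferative gene, rose by 3.18 ± 0.19 from a low level, and CDKN1A, the inhibitor p21, went from 60.2, 52.7 and 59.4 CPM to 125, 132 and 114 CPM. MDM2, BAX and FAS rose by no more than 0.50 ± 0.09, the value of BAX, while XPC, SESN1, RRM2B and CCNG1 were among the 5 that fell, XPC most at -0.78 ± 0.08.

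Members that promote death and members that oppose it rose in the BCL2 family and death receptor list: 15 of 24 were higher and 6 lower, and total counts alone gave 10 and 7. BCL2A1, an antiapoptotic member, went from 16.0, 17.1 and 11.8 CPM to 114, 121 and 134 CPM, and MCL1, another, rose by 1.13 ± 0.05. PMAIP1 (NOXA) and BBC3 (PUMA), which antagonise such members, went from 14.7, 12.7 and 11.1 CPM to 83.5, 88.0 and 85.4 CPM and from 2.63, 3.13 and 2.84 CPM to 9.15, 9.78 and 9.41 CPM. The death receptor TNFRSF10B (DR5) rose from 35.0, 32.8 and 31.7 CPM to 107, 102 and 106 CPM. CASP8, the caspase below it, fell by 1.02 and BCL2L1, which encodes BCL-XL, by 0.50.

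Cytosolic heat shock genes moved in both directions. Of 21 tested, 11 rose and 6 fell, beside 33.2 and 37.2% of all tested genes. The median was 0.22, and total counts alone gave 9 and 9. HSPA8, the constitutive HSP70, had the largest loss of CPM of all named genes, from 3434, 3380.5 and 2974 CPM to 2165, 2225 and 1854 CPM (log2 fold change -0.65 ± 0.07, adjusted p = 2.2e-08). HSP90AA1 and HSP90AB1 had log2 fold changes of -0.02 ± 0.10 and 0.10 ± 0.06 and did not pass. HSPB8, a small heat shock protein, went from 1.16, 1.04 and 1.11 CPM to 15.4, 13.8 and 12.8 CPM, and the co-chaperone DNAJB1 from 71.8, 71.4 and 77.5 CPM to 189, 204 and 171 CPM. HSPA1A and HSPA1B, near-identical copies whose reads can be misassigned, rose by 0.57 ± 0.10 and 0.74 ± 0.11, while HSPA1L, the third gene of that cluster, fell by 1.82.

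Antioxidant targets of NRF2 rose in 15 of 20 cases and fell in 2 with a median of 0.33, and 8 and 4 were called with total counts alone. OSGIN1 went from 1.53, 1.14 and 1.25 CPM to 8.23, 8.65 and 8.84 CPM and HMOX1, heme oxygenase, from 53.2, 55.2 and 55.2 CPM to 144, 134 and 133 CPM. NQO1, a standard NRF2 target, had a log2 fold change of -0.04 ± 0.06 (adjusted p = 0.5), and KEAP1, which holds NRF2 inactive, and PRDX1, a peroxiredoxin, fell by 0.54 and 0.43. Cholesterol genes rose in 19 of 25 cases and fell in 1 (2 without DMSO replicate 2 or 3), and total counts alone gave 11 and 4. HMGCS1, at the entry of the pathway, went from 119, 105 and 117 CPM to 456, 438 and 443 CPM (log2 fold change 1.97 ± 0.06). SREBF2, the factor that drives these genes, and STARD4, a sterol carrier, rose by 1.13 ± 0.07 and 1.29 ± 0.07. Triglyceride and fatty acid genes held the largest fall among named genes with a mean of at least 2 CPM, DGAT2, which makes triglycerides, from 16.4, 16.5 and 14.9 CPM to 0.967, 0.494 and 0.810 CPM (log2 fold change -4.38 ± 0.18, adjusted p = 9.0e-16). Its unrelated counterpart DGAT1 had a log2 fold change of 0.04 ± 0.10 (adjusted p = 0.72), and ACACB and GPAM, an acetyl-CoA carboxylase and a glycerol phosphate acyltransferase, fell by 1.33 and 1.28. That list as a whole held 10 rises and 8 falls of 25 (6 and 13 with total counts alone), near the shares of all genes.

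Autophagy and lysosome genes rose in 18 of 28 cases and fell in 1, with a median of 0.67. The count of falls was 3 without DMSO replicate 3, 2 without BE-43547A1 replicate 3 and 9 with total counts alone. SQSTM1 (p62), a cargo receptor, went from 381, 362 and 344 CPM to 1928, 1844 and 1696 CPM and MAP1LC3B, which marks autophagosomes, from 17.9, 18.1 and 25.4 CPM to 116, 119 and 129 CPM. TFE3 and MITF, regulators of lysosomal genes, rose by 1.89 ± 0.08 and 1.05 ± 0.06, while their relative TFEB had a log2 fold change of -0.41 ± 0.21 (adjusted p = 0.084). ATG16L1, a component of the lipidation machinery, was the member that fell (-0.58 ± 0.06).

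Ribosomal protein genes, many with near-identical pseudogenes that can take their reads, rose in 22 of 42 cases and fell in 3, with small changes (median 0.20). Total counts alone turned this to 10 and 14 with a median of -0.03. RPL12 and RPL28 rose most (1.07 ± 0.13 and 0.97 ± 0.11), RPL22 and RPL7 were among the 3 that fell, and the call of RPL7 was lost without DMSO replicate 1, BE-43547A1 replicate 1 or BE-43547A1 replicate 2. Interferon-stimulated genes fell in 10 of 26 cases, a share close to the 37.2% of all tested genes, and rose in 6 (15 and 4 with total counts alone). SAMD9 went from 26.1, 21.9 and 23.0 CPM to 3.71, 3.48 and 3.82 CPM, and IFIT1 and IFIT5, which bind foreign RNA, fell by 2.17 and 2.18. ISG20, an exonuclease, rose by 1.61 ± 0.11, while ISG15 had a log2 fold change of -0.08 ± 0.10 and did not pass. In the epithelial, mesenchymal and stem cell list 12 of 18 rose and 3 fell (6 and 5 with total counts alone). KLF4 went from 5.75, 5.94 and 6.59 CPM to 74.3, 81.2 and 74.6 CPM, the chemokine receptor CXCR4 from 1.19, 1.33 and 1.68 CPM to 4.72, 5.19 and 5.10 CPM and the mesenchymal regulator SNAI1 from 4.07, 4.26 and 4.92 CPM to 12.0, 13.1 and 10.3 CPM, while CDH1 (E-cadherin) fell by 0.34, a call lost without BE-43547A1 replicate 1. CDH2 and ALDH1A3 had the smallest falls (-0.18 ± 0.05 and -0.14 ± 0.05), and that of ALDH1A3 was lost under 6 of the 18 alternative settings.

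**Figure D5:**
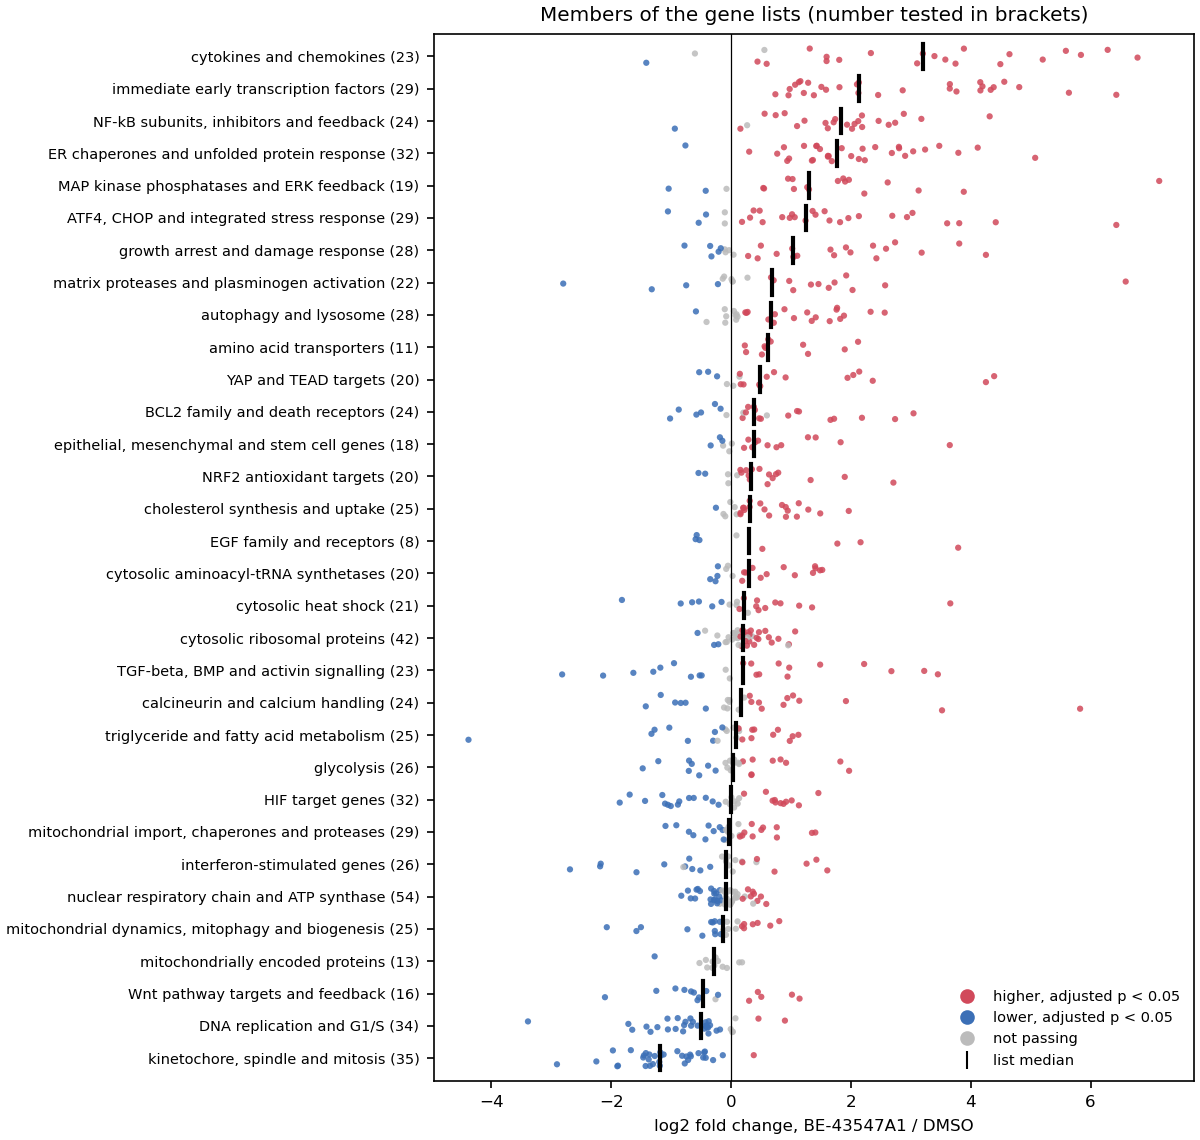
Log2 fold change of BE-43547A1 over DMSO for each tested member of the 32 gene lists, coloured by call, with the list median as a black bar and lists ordered by median; the vertical spread within a list is jitter. Cytokines and immediate early genes have the highest medians (3.20 and 2.13) and mitosis genes the lowest (-1.18). With total counts alone the medians of the TGF-beta, calcineurin, glycolysis, heat shock, triglyceride and ribosomal protein lists fall below 0.

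The largest falls beyond those lists were spread over several kinds of gene. PCDH18, a protocadherin, went from 8.99, 8.31 and 7.56 CPM to 0.742, 0.667 and 0.497 CPM and KLHL14, a BTB-Kelch protein, from 24.6, 21.7 and 22.1 CPM to 2.20, 1.95 and 2.27 CPM. PIF1, a DNA helicase, and PSRC1, a microtubule-binding protein, fell by 3.09 and 3.01 on the log2 scale. TRIM6, a ubiquitin ligase, went from 39.9, 44.0 and 44.2 CPM to 6.0, 5.14 and 5.12 CPM. Zinc finger genes took 3 of the 15 places (ZNF737, ZNF681 and ZNF429), and such genes have close paralogues that can share reads. SLC16A14, NPY4R, C1orf74 and NREP filled the others, with log2 fold changes of -3.14 to -2.91. Among the 8 largest losses in CPM, UACA went from 1784, 1921 and 1937 CPM to 867, 936 and 971 CPM and ANLN, a cytokinesis protein, from 1506, 1637 and 1542 CPM to 1121, 1200.3 and 1192 CPM. CD59, an inhibitor of complement, went from 838, 798 and 725 CPM to 418, 413 and 422 CPM and ARRDC3, an arrestin-domain protein, from 622, 590.5 and 545 CPM to 248, 238 and 249.9 CPM.

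By adjusted p alone, long noncoding RNAs were called at similar rates to protein-coding genes, with 729 of 2293 higher and 856 lower against 4284 and 5108 of 12685. Calls of at least 2-fold took a larger share of them. They were 532 higher and 597 lower of 2293, against 1401 and 1352 of 12685 protein-coding genes. Over all tested genes the shares were 13.2% higher and 12.8% lower. The part of low counts in this difference was not tested. MALAT1, a nuclear RNA, had the largest gain in CPM of all named genes, from 4924, 5003 and 8879 CPM to 10369, 11677 and 11691 CPM (log2 fold change 0.84 ± 0.24, adjusted p = 0.018). DMSO replicate 3 was the high control, and without it the log2 fold change was 1.17 (adjusted p = 5.4e-18), whereas the call was lost with total counts alone (adjusted p = 0.06), with only the 6 libraries compared (0.057) and without DMSO replicate 1 or 2 (0.055 and 0.057). The adjusted p over all alternatives ranged from 5.4e-18 to 0.06. C12orf79, C3orf35 and BACH1-IT1 rose by 3.54 ± 0.14, 3.20 ± 0.17 and 2.68 ± 0.21, and TMCC1-AS1, MFI2-AS1 and COX10-AS1 fell, with log2 fold changes of -2.47, -2.20 and -2.17. LINC00346 went from 2.05, 1.99 and 1.73 CPM to 14.2, 14.6 and 12.9 CPM and LINC00461 from 10.1, 9.44 and 10.5 CPM to 1.10, 1.09 and 1.10 CPM. HOTAIR, a noncoding RNA of the HOXC cluster, fell from 22.9, 24.5 and 24.7 CPM to 4.12, 4.18 and 3.56 CPM (log2 fold change -2.60 ± 0.11, adjusted p = 7.7e-17). The strand setting of the counting is not given in the sources used here, so counts of HOTAIR, of KRTAP5-AS1 (3 counts in DMSO and 847 after BE-43547A1) and of the other antisense entries cannot be told apart from those of genes on the opposite strand.

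BE-43547A1 was also set against rakicidin A to see which of these changes differed between the related compounds. Their doses were nearly but not exactly the same, 41 and 42 nM. By the same fit 3633 genes were higher after BE-43547A1 than after rakicidin A (20.0% of those tested) and 5138 were lower (28.4%). Total counts alone gave 5252 higher and 3757 lower, so 58.3% of calls were upward in place of 41.4%, with the median difference moving from -0.03 to 0.09.

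Of 29 immediate early genes 21 were higher after BE-43547A1 than after rakicidin A and 2 were lower (25 and 0 with total counts alone). FOS was at 27.7, 24.9 and 22.8 CPM in DMSO, 11.0, 13.3 and 10.5 CPM after rakicidin A and 118, 124 and 87.3 CPM after BE-43547A1, a log2 difference between the compounds of 3.23 (95% interval 2.84 to 3.63) with an adjusted p of 4.6e-07. JUNB was at 36.2, 33.7 and 34.7 CPM, 29.1, 28.6 and 27.1 CPM and 90.4, 87.8 and 77.1 CPM in the same order, so both genes lay below DMSO with one compound and above it with the other. FOSB differed by 2.78 (95% interval 2.31 to 3.25), EGR1 by 2.37 (95% interval 1.60 to 3.13) and JUN by 1.60 (95% interval 1.43 to 1.77). ATF3 differed by 0.10 (95% interval -0.05 to 0.24), an interval that includes 0.

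SEMA4A had the largest difference among named genes with a mean of at least 2 CPM, 1.13, 1.15 and 0.644 CPM after rakicidin A and 16.2, 17.1 and 11.7 CPM after BE-43547A1, or 3.91 (95% interval 3.46 to 4.36) on the log2 scale, and RINL and KIAA1683 differed by 2.52 and 2.83. Cytokines were higher after BE-43547A1 in 15 of 23 cases and lower in 3 (16 and 0 with total counts alone), with IL11 at 66.5, 75.6 and 57.2 CPM after rakicidin A and 336, 345 and 289 CPM after BE-43547A1 and TNF differing by 3.09 (95% interval 2.34 to 3.83). NF-kB feedback genes with a difference in the same direction included TNFAIP3 at 1.51 (95% interval 1.30 to 1.73) and NFKBIA at 1.57 (95% interval 1.38 to 1.76), while BIRC3 differed by -0.01 (95% interval -0.14 to 0.12).

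The ER list lay on the other side. None of its 32 members was higher after BE-43547A1 than after rakicidin A and 30 were lower, with a median difference of -0.54 (27 lower and a median of -0.42 with total counts alone). DNAJB9 was at 670.2, 657 and 694 CPM after rakicidin A against 348, 356 and 416 CPM after BE-43547A1, a difference of -0.85 (95% interval -1.01 to -0.69). HSPA5 differed by -0.05 (95% interval -0.53 to 0.44) and ERN1 by -0.02 (95% interval -0.16 to 0.12). Amino acid transporters were lower in 8 of 11 cases (6, with 1 higher, with total counts alone), and SLC7A11 was at 619, 619 and 652 CPM after rakicidin A and 203, 187 and 229 CPM after BE-43547A1. Mitosis genes were lower after BE-43547A1 in 23 of 35 cases and higher in 2 (19 and 2 with total counts alone), and RCAN1 differed by -0.08 (95% interval -0.21 to 0.04).

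Cytosolic heat shock genes were higher after BE-43547A1 than after rakicidin A in 13 of 21 cases and lower in 1 (13 and 0 with total counts alone). HSPA8 was at 3434, 3380.5 and 2974 CPM in DMSO, 2165, 2225 and 1854 CPM after BE-43547A1 and 1062, 1077 and 995 CPM after rakicidin A. HSPA1A differed by 1.97 (95% interval 1.71 to 2.24). RAB39B, a RAB GTPase, was at 48.3, 41.6 and 50.7 CPM after rakicidin A and 10.3, 10.7 and 11.9 CPM after BE-43547A1, and ENC1 at 73.9, 76.6 and 79.0 CPM and 24.7, 21.0 and 24.5 CPM. CCDC163P and SCAND3 were the other large differences in that direction, at -2.38 and -2.14. BDNF, a neurotrophin, did not pass against DMSO (log2 fold change -0.23 ± 0.19, adjusted p = 0.28) and differed from its rakicidin A level by -1.62 (95% interval -2.03 to -1.20).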

How the data were processed

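RNA of PANC-1 cells was read in 9 libraries, 3 per group, as total RNA sequenced from both ends per the labels. The authors deposited a table of raw counts per annotated feature, not normalized. TopHat2, HTSeq and the builds GRCh37 and hg19 are named in the submitters' processing notes; the roles, settings and strand mode of these tools were not available to this work. Of the counter's summary lines, which count no gene, 5 were left out; reads outside any feature were 18.1 to 20.8% in the 6 libraries compared.

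Counts were fitted in R 4.3.3 with edgeR 4.0.16 (filterByExpr, TMM, robust quasi-likelihood, 1 mean per group over all 9 libraries, 6 residual degrees of freedom), with Benjamini-Hochberg adjustment over all 22353 features that passed the filter; GENCODE entries are reported. Each SE is derived from edgeR's F and the fitted change. Ratios for genes with at most 3 counts carry exact 95% intervals, which cover counting error only. Gene types came from GENCODE v29 (17595 of 18122 matched), promoters from RefSeq. The fit was also run on simulated counts in which few features changed, in both directions. Far more genes were called in the real data, so that run cannot check the scaling.

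Named genes were the 15 largest rises and falls with a mean of at least 2 CPM and no overlap, 5 noncoding RNAs each way, the 8 largest gains and losses in CPM, up to 4 members per list, members against a list's majority where these were 3 or fewer, and the 6 largest differences from rakicidin A each way. Other list members were named for their role after their values were seen. Members and lists (32, with 863 entries) were chosen with earlier results of these data known. Alternatives were other scalings, no filter, DESeq2 1.42.0, limma-voom (limma 3.58.1), the 6 libraries alone, a replicate block, thinning, leaving out mitochondrial and ribosomal RNA genes, and leaving out single libraries. A few genes that the rule names are not reported here.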

Additional observations from a re-analysis of the deposited data

How the results depend on the processing

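Against DMSO, the fits with other size factors, no filter, DESeq2, limma-voom, the 6 libraries alone, equal depth (each library thinned to 26203326 counts) and without mitochondrial and ribosomal RNA genes called 5711 to 6751 genes higher and 6303 to 6906 lower. Total counts alone gave 4295 and 9128, both within 1.5 times of 6011 and 6740. A log2 fold change of at least 1 in addition to the adjusted p left 2389 higher and 2325 lower. Leaving out single DMSO or BE-43547A1 libraries gave 5788 to 6152 and 6359 to 6951, and single rakicidin A libraries 6133 to 6181 and 6805 to 6875. With the replicate number as a block the counts were 6008 and 6735. Same-numbered DMSO and BE-43547A1 libraries had correlations of deviation of 0.122, 0.00249 and -0.0566. Those of differently numbered libraries ranged from -0.0967 to 0.0925. Deviations within groups of 3 libraries cannot decide whether the numbers mark a shared culture or day, and the labels do not say. The block changed no call among the genes named by rule. Against rakicidin A the block gave 3660 higher and 5143 lower. Of 3634 repeats over 202 results named by rule, 3614 kept direction and call, 20 in 7 genes lost the call and 0 reversed. These results were picked from the same data because they passed, most of them for large changes. Few lost calls were therefore likely from the start, and members named only for their role are not among the 202. Depth limits the genes near silence in DMSO, where 3 counts or fewer set the ratio.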

Other observations

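Gene families picked by name after their values were seen are given here as values, beside 33.2% of all tested genes higher and 37.2% lower. HOX genes, which encode homeobox factors of body patterning, fell in 23 of 25 tested cases, with a median log2 fold change of -1.28 and 18 falls of at least 2-fold, and 22 or 23 were lower in each setting tried. HOXB9 was among the 2 that rose, by 0.89. Genes named ZNF, mostly zinc finger factors with close paralogues, fell in 293 of 444 cases and rose in 90, with a median of -0.63 (324 and 69 with total counts alone). KLF genes, zinc finger factors of the Krüppel-like family, rose in 12 of 13 cases with a median of 1.06 and none was called lower. Protocadherins fell in 9 of 20 cases and 0 rose (8 and 1 without DMSO replicate 3, 12 and 0 with total counts alone). The 9 falls are near the share of all genes, but 7 were of at least 2-fold, where 12.8% of all tested genes fell that far. KLHL genes, adaptors of ubiquitin ligases, fell in 18 of 28 cases and rose in 7 (20 and 5 with total counts alone). Of the other families looked at, DUSP genes rose in 9 and fell in 7 of 18 cases (9 and 9 with total counts alone). TRIM genes rose in 11 and fell in 20 of 40 (6 and 28 with total counts alone). Class 4 semaphorins rose in 2 and fell in 1 of 6 cases (2 and 3 with total counts alone), and other semaphorins rose in 7 and fell in 2 of 11 (2 and 4).

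Pseudogenes differed from other gene classes in the share called lower: 481 of 2296 fell and 763 rose, while 5108 of 12685 protein-coding genes fell and 4284 rose. Many pseudogenes share reads with their parent genes, and their part in these counts was not tested.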
